A study of Mus musculus with 22 samples.

Results

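The genes described here are 10 goblet cell genes of the mouse colon epithelium: Retnlb, Ang4, Itln1, Spink4, Agr2, Tff3, Clca1, Fcgbp, Zg16 and Foxa3. They were chosen by symbol, as every probe that the array annotation assigns to 1 of these names, which gave 11 probes of 45281 on the array and 10 genes of 19053 with a name. Most of their products are secreted, but Foxa3 is a transcription factor and Agr2 works inside the secretory pathway. RNA was measured on 22 Illumina bead arrays of epithelial cells that had been released from the colon of BALB/c mice with 20 mM EDTA for 25 min, with no sorting named. The mice were labelled male and aged 6 to 10 weeks. The 6 KO_antibiotic arrays came from mice that lack a working Pigr gene (pIgR-KO, here KO) and were given antibiotics for 17 days, and the 5 WT_antibiotic arrays from wild-type (WT) mice given the same course. The 6 KO_untreated and 5 WT_untreated arrays came from KO and WT mice without treatment. The sources used here do not name the antibiotics, nor say whether an array held RNA of 1 mouse or several. The p-values therefore measure the spread between these arrays, which may be technical.

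Goblet cells are the mucus-secreting cells of the intestinal epithelium, and their products form the gel that keeps bacteria away from the colon surface. Several of these products also act on bacteria directly, and in mice some of them are known to depend on colonisation by bacteria and on type 2 cytokines. Pigr encodes the receptor that moves polymeric IgA and IgM through epithelial cells and releases them into the lumen, so that KO mice lack these antibodies there. The comparisons ask how goblet cell genes differ between genotypes with and without antibiotics, and between treated and untreated mice of each genotype.

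Between 15975 and 18388 probes were detected per array. Pigr, the disrupted gene, lay between 8.74 and 10.25 on the log2 scale on KO_antibiotic arrays, against 11.32 to 12.01 on WT_antibiotic arrays, and between 8.93 and 10.73 on KO_untreated arrays, against 11.61 to 12.50 on WT_untreated arrays, so that the genotypes did not overlap. All 10 epithelial markers (such as Epcam and Krt8) were detected on every array. Of 6 stromal, muscle and endothelial markers, Acta2 was detected on 22 arrays, Des on 21, Vim on 14, Pecam1 on 8, and Col1a1 and Col3a1 on 0. KO_antibiotic 6 stood apart in its group: over all tested probes it correlated with the other KO_antibiotic arrays at 0.939 to 0.968, and best with WT_antibiotic 3, at 0.982. KO_untreated 1 and KO_untreated 2 carry the same number in their descriptions, which differ only by a suffix that KO_untreated 2 to 6 have and no other array has. WT_untreated 3 and KO_untreated 6, which differ in genotype, also share a number and differ by this suffix. What the number and suffix mean is not given. In comparisons with KO_untreated, whatever the suffix marks cannot be told apart from genotype or treatment. KO_untreated 1 and KO_untreated 2 correlated at 0.963, below the highest correlation of each within the group (0.968 and 0.986). Values without 1 of these arrays stand beside the results that they change.

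Levels are log2 values after background correction and quantile normalisation, and they compare arrays for 1 probe, not 1 gene with another. Of the 10 genes, 9 had a tested probe, and 19993 probes were tested in all, those detected on at least 5 arrays. Retnlb, Spink4, Agr2, Tff3, Zg16, Foxa3 and both probes of Clca1 were detected on 22 arrays, and Ang4 and Itln1 on 21. Ang4 was not detected on WT_antibiotic 4 (4.53), and Itln1 was not detected on KO_antibiotic 6 (4.41). Ang4 on KO_antibiotic 6 (4.71) had a detection p-value of 0.0481, close to the limit of 0.05. For Itln1 it was 0.0331 on WT_antibiotic 3 (4.80) and 0.0353 on WT_antibiotic 4 (4.79). Differences and spreads of these 2 genes in the antibiotic groups thus rest in part on levels near background. The single probe for Fcgbp, a mucus protein with repeated von Willebrand factor domains, was detected on 0 of 22 arrays, so that no level or difference is given for it. The probe is annotated to a cDNA clone and not to a curated transcript. Probe sequences were not used here, so binding of the Ang4 and Itln1 probes to RNA of near-identical copies was not tested.

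In untreated mice, Retnlb, Spink4 and Foxa3 were higher in KO than in WT by limma, with a Benjamini-Hochberg adjusted p under 0.05 over all tested probes. That is 3 of 9 genes, where 10.9% of all tested probes passed and 5.55% passed as higher. The median difference of the 9 genes was 0.71 (log2), against 0.04 over all tested probes. The same 3 genes were those whose KO_untreated arrays all lay above all WT_untreated arrays, which held for 4.09% of tested probes. Under antibiotics, 0 of 9 genes passed between KO and WT by limma, where 0.03% of probes passed. KO_antibiotic and WT_antibiotic arrays overlapped for all 9, where they did not overlap for 0.245% of probes. There, 5 of the 9 genes had an unadjusted p under 0.05, as did 654 of the 19993 tested probes. All 9 had an adjusted p of 0.9999, and the median difference was 0.45, against 0.00 over all tested probes.

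With antibiotics, most of these genes were lower in both genotypes. In KO mice 5 of 9 genes fell (Retnlb, Ang4, Spink4, Agr2 and Foxa3) and 1 rose (Tff3), where 12.4% of tested probes passed, 7.06% as lower and 5.33% as higher. The median difference was -1.35 in KO mice, against 0.01 over all tested probes. All KO_antibiotic arrays lay below all KO_untreated arrays for 6 genes (these 5 and Itln1), against 3.87% of probes, and above them for Tff3, against 2.32%. In WT mice the 5 genes that fell were those named for KO mice, and 0 rose, where 4.75% of probes passed and 2.27% passed as lower. The median difference was -1.29 in WT mice, against 0.03 over all tested probes. WT_antibiotic arrays lay below all WT_untreated arrays for Retnlb, Agr2 and Foxa3, against 2.53% of probes. Each untreated group serves in both its genotype and its antibiotic comparison, so these differences share arrays. RNA from a mixed epithelium cannot tell fewer goblet cells from less RNA per goblet cell.

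**Figure D1:**
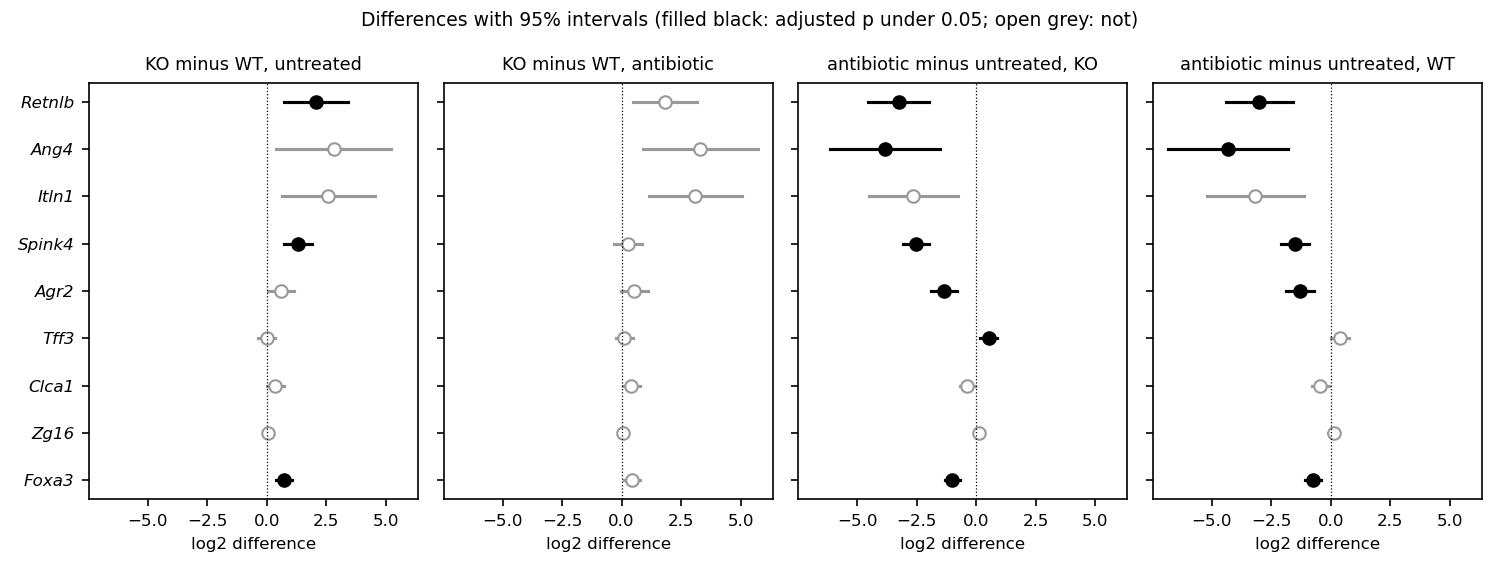
Differences in log2 level for the 9 genes with a tested probe (rows), in 4 comparisons (panels). Points are limma differences and bars their 95% intervals; filled black points passed an adjusted p under 0.05, as did Retnlb, Spink4 and Foxa3 in KO minus WT, untreated, and none in KO minus WT, antibiotic.

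Promoter sequence was at hand for 5 of the 10 genes (Ang4, Itln1, Agr2, Fcgbp and Foxa3), from RefSeq on build GRCm38.p6. Short motifs for 6 kinds of regulator were searched on both strands, in a window of 300 bases that starts 250 bases before the gene's start. TTTATG, a core of the site of the intestinal factor CDX2, matched in Itln1 and in Agr2, in both on the strand opposite to the gene, so that it reads CATAAA along the gene. It lies at bases -29 to -24 from the start of Itln1 and at -47 to -42 from the start of Agr2, and 11.9% of 32851 promoters hold it. RefSeq's extent of Itln1 reaches farther upstream than the start used here, past this match, so that the match lies inside the annotated gene when counted from that end. The 30 bases around each match are shown side by side, because Itln1 was among the most variable genes of the series and Agr2 was not (Itln1 at chr1:171535306-171535335, minus strand; Agr2 at chr12:35992866-35992895, plus strand; capitals mark the match).
Itln1: ctgggctttcccCATAAAaggaccaaagtc
Agr2: gtgtgctctgccCATAAAtacaggctcagc

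CAGCTG, an E-box that the secretory cell factor ATOH1 and others can bind, matched in Fcgbp at bases -208 to -203, and 16.3% of promoters hold it. The FOXA motif TGTTTAC (3.65% of promoters), the STAT6 motif (6.95%), the SPDEF core CCGGAT (6.04%) and the unfolded protein response motif TGACGTG (2.01%) matched in 0 of the 5. Each of the matches found lay in a different gene. For Ang4, the most variable of the 10 genes across arrays, the 250 bases before the start hold none of the 6 motifs and are shown without capitals (chr14:51773591-51773840, minus strand).
Ang4: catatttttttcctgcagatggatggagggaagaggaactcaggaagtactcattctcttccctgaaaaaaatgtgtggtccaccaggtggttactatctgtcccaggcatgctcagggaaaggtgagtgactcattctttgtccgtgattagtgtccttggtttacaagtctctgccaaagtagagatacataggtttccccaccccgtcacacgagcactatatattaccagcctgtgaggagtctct

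Retnlb encodes a resistin-like molecule that goblet cells secrete into the lumen and that damages bacterial membranes. Its log2 level had a lowest, median and highest value of 7.84, 11.98 and 12.32 on the KO_antibiotic arrays, against 9.79, 9.35, 8.82, 9.27 and 10.25 on WT_antibiotic arrays 1 to 5. The lowest, median and highest were 14.44, 14.57 and 14.70 on the KO_untreated arrays, against 12.53, 10.31, 14.31, 13.86 and 11.51 on WT_untreated arrays 1 to 5. KO_untreated arrays were thus uniformly high, while WT_untreated arrays were spread widely and only WT_untreated 3 came near the KO_untreated level. The KO_untreated signal was 72.2% to 90.4% of the brightest probe, and whether this narrowed its spread was not tested. Of the 6 KO_antibiotic arrays, 5 lay above every WT_antibiotic array, and KO_antibiotic 6 lay below all of them.

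Retnlb was 4.16-fold higher in KO than in WT untreated mice (log2 difference 2.06 ± 0.65 SE, adjusted p = 0.0447). This call was lost in 9 of 11 fits that each left out 1 array, with adjusted p up to 0.125; it was kept only without WT_untreated 3 or WT_untreated 4. In KO mice Retnlb fell by 3.25 with antibiotics (SE 0.62, adjusted p = 0.000898), a 9.50-fold fall. In WT mice it fell by 3.01 (SE 0.68, adjusted p = 0.0119), a call that was lost without WT_untreated 3 (adjusted p = 0.0501). Under antibiotics the difference between KO and WT was 1.82 ± 0.65 SE, and without KO_antibiotic 6 it was 2.51 with an adjusted p of 0.0427.

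Ang4 encodes an angiogenin, a secreted ribonuclease with antimicrobial activity that was described in mouse Paneth cells and is also made by goblet cells. Its lowest, median and highest levels were 4.71, 11.03 and 11.77 on KO_antibiotic arrays, against 8.36, 6.06, 6.40, 4.53 and 8.66 on WT_antibiotic arrays 1 to 5. They were 13.42, 14.02 and 14.21 on KO_untreated arrays, against 11.93, 6.51, 13.96, 13.67 and 9.58 on WT_untreated arrays 1 to 5. The WT_untreated arrays were again spread widely, and WT_untreated 3 and 4 lay within the range of KO_untreated arrays. The difference between KO and WT was 2.80 ± 1.17 SE in untreated mice (adjusted p = 0.114) and 3.31 ± 1.17 SE under antibiotics, and neither passed.

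With antibiotics Ang4 fell by 3.82 in KO mice (SE 1.11, adjusted p = 0.0246) and fell by 4.33 in WT mice (SE 1.22, adjusted p = 0.0408). Every KO_antibiotic array lay below every KO_untreated array, while WT_antibiotic arrays overlapped WT_untreated ones. Without KO_antibiotic 6 the difference in KO mice was -2.74, with an adjusted p of 0.0573. The call in WT mice was lost in 7 of 10 fits that each left out 1 array, with adjusted p up to 0.137; it was kept without WT_untreated 2, WT_untreated 5 or WT_antibiotic 5.

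Itln1 encodes intelectin, a lectin that binds sugars found on microbial surfaces. Its lowest, median and highest levels were 4.41, 9.86 and 10.82 on KO_antibiotic arrays, against 7.15, 5.30, 4.80, 4.79 and 7.48 on WT_antibiotic arrays 1 to 5. They were 10.93, 11.53 and 12.46 on KO_untreated arrays, against 9.24, 6.06, 11.30, 11.09 and 7.67 on WT_untreated arrays 1 to 5. No difference of Itln1 passed, although the estimates were large, several passed under other settings, and every KO_antibiotic array lay below every KO_untreated array. The difference between KO and WT was 2.57 ± 0.95 SE in untreated mice (adjusted p = 0.0773) and 3.09 ± 0.95 SE under antibiotics. The difference between antibiotic and untreated was -2.65 ± 0.90 SE in KO mice (adjusted p = 0.0566) and -3.17 ± 0.99 SE in WT mice (adjusted p = 0.0653). Several of these lay close to the threshold and passed without 1 array: KO against WT untreated without WT_untreated 3 (adjusted p = 0.0472), KO against WT under antibiotics without KO_antibiotic 6 (4.01, adjusted p = 0.0427), and antibiotic against untreated WT without WT_untreated 2 (adjusted p = 0.0199). Antibiotic against untreated KO passed without KO_antibiotic 2 or KO_antibiotic 3 (lowest adjusted p = 0.0381), and also with 5 other ways of processing, among them the authors' processed values for Itln1 (adjusted p = 0.0414). KO against WT untreated passed with array weights, the replicate block or only the groups compared (adjusted p = 0.0221, 0.0443 and 0.0304).

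**Figure D2:**
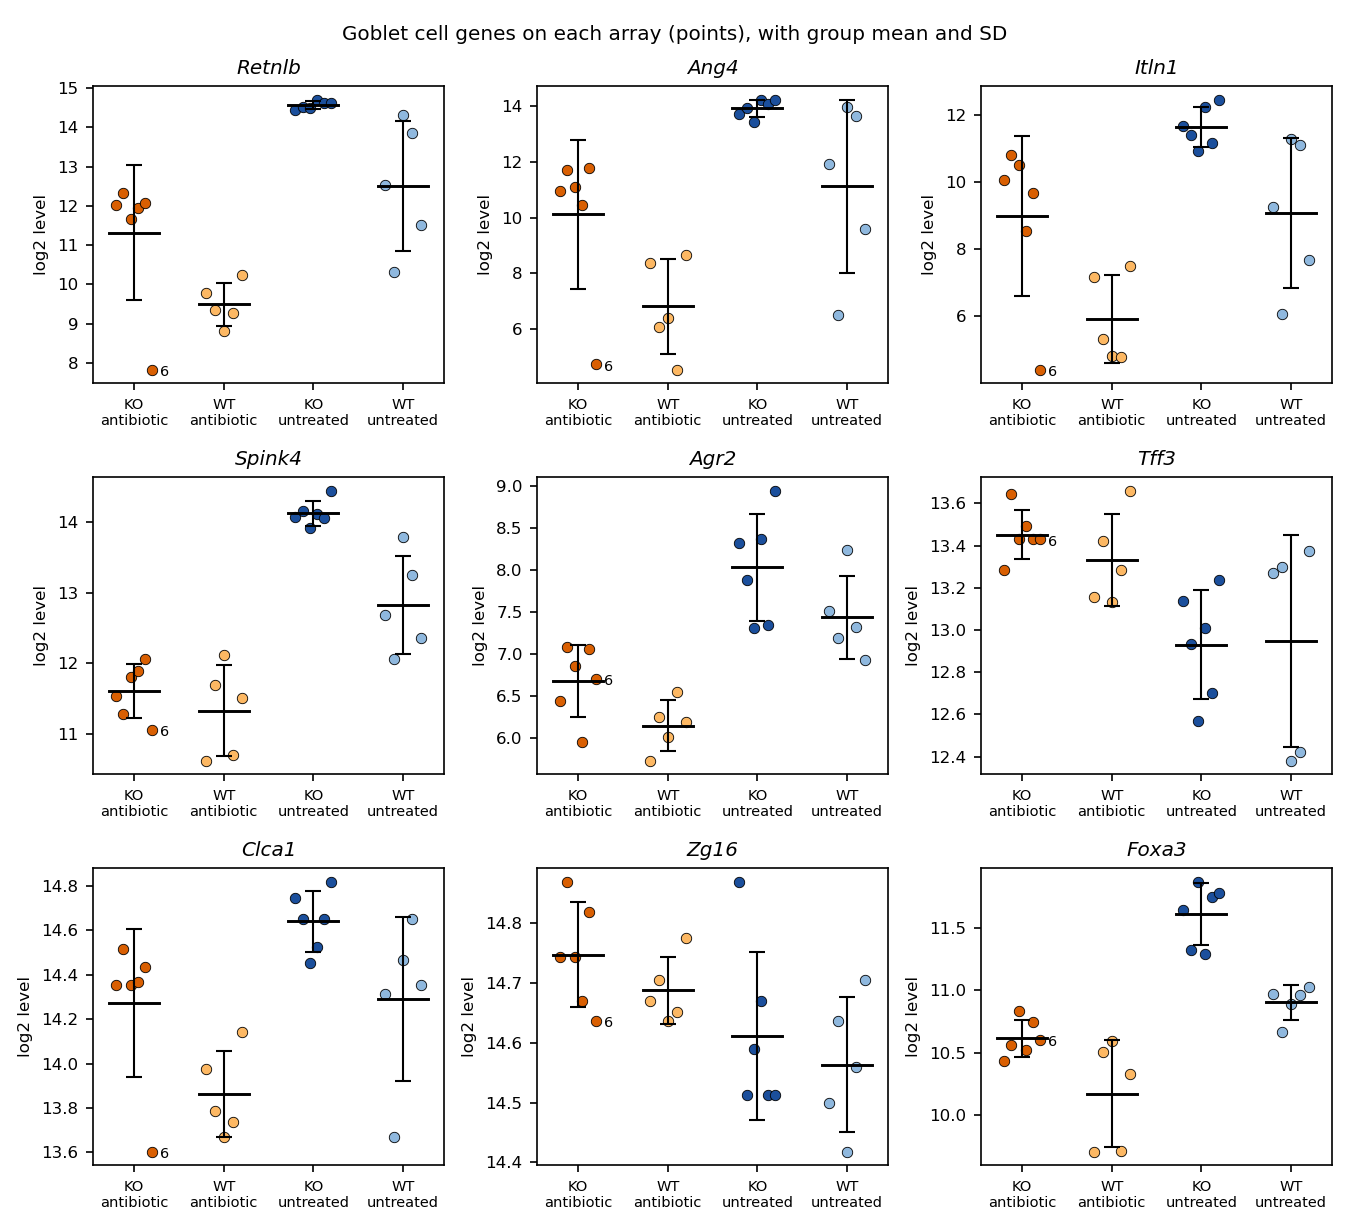
Log2 level of the 9 genes with a tested probe on each array (points), by group, with the group mean (horizontal line) and SD (bars); each panel has its own vertical axis. KO_antibiotic 6, marked 6, is the lowest KO_antibiotic array for Retnlb (7.84), Ang4 (4.71), Itln1 (4.41) and Clca1 (13.60), and all KO_untreated arrays lie above all WT_untreated arrays for Retnlb, Spink4 and Foxa3.

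Zg16 encodes a lectin-like protein that binds the cell wall of Gram-positive bacteria. Its group means lay close together and no difference passed: they were 14.75 ± 0.09 in KO_antibiotic and 14.69 ± 0.06 in WT_antibiotic, and 14.61 ± 0.14 in KO_untreated and 14.56 ± 0.11 in WT_untreated (SD, n = 6 for each KO group and 5 for each WT group). The difference between KO and WT was 0.05 (95% interval -0.16 to 0.26) in untreated mice and 0.06 (-0.15 to 0.27) under antibiotics. The difference between antibiotic and untreated was 0.14 (-0.06 to 0.33) in KO mice and 0.12 (-0.09 to 0.34) in WT mice. The raw Zg16 signal was 71.3% to 100% of the brightest probe on its array. The files carry no flag for saturated beads, so whether bright signals were compressed was not tested. The same holds for Clca1, at up to 96.7% of the brightest probe, and for Retnlb on KO_untreated arrays, at 72.2% to 90.4%.

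Clca1, which acts in the mucus as a protease that trims the mucin network, was measured by 2 probes. The brighter probe had a lowest, median and highest level of 13.60, 14.36 and 14.51 on KO_antibiotic arrays, against 13.98, 13.79, 13.67, 13.74 and 14.14 on WT_antibiotic arrays 1 to 5. They were 14.45, 14.65 and 14.82 on KO_untreated arrays, against 14.31, 13.67, 14.47, 14.65 and 14.35 on WT_untreated arrays 1 to 5. The groups overlapped in every comparison, and neither probe passed in any. The brighter probe differed by 0.35 ± 0.17 SE between KO and WT untreated mice (adjusted p = 0.166) and by 0.41 ± 0.17 SE under antibiotics. Between antibiotic and untreated it differed by -0.37 ± 0.16 SE in KO mice (adjusted p = 0.147) and by -0.43 ± 0.17 SE in WT mice (adjusted p = 0.167). Without WT_untreated 2 the difference in WT mice was -0.58 and passed (adjusted p = 0.0370). The second probe gave 0.39 and 0.79 for KO against WT without and with antibiotics. The 2 probes correlated at 0.94 over the 22 arrays and at 0.88 with group means removed.

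Tff3 encodes the intestinal trefoil factor, a small peptide that goblet cells secrete and that aids repair of the epithelium. Of the 9 genes, it alone rose with antibiotics, which it did in KO mice; the difference from WT mice did not pass (0.14 ± 0.25 SE, adjusted p = 0.869). Its lowest, median and highest levels were 13.28, 13.43 and 13.65 on KO_antibiotic arrays, against 12.57, 12.97 and 13.24 on KO_untreated arrays, without overlap. The difference was 0.52 ± 0.17 SE (adjusted p = 0.0451), or 1.43-fold. This call was lost in 10 of 12 fits that each left out 1 array, with adjusted p up to 0.109, and was kept without KO_untreated 1 or KO_untreated 6. Its WT_antibiotic levels were 13.15, 13.42, 13.13, 13.28 and 13.66 on arrays 1 to 5, against WT_untreated levels of 13.27, 13.30, 12.38, 12.42 and 13.38. These overlapped, with a difference of 0.38 ± 0.19 SE (adjusted p = 0.264). WT_untreated 3 and 4, the arrays with the highest WT_untreated levels of Retnlb, Ang4 and Itln1, had the lowest levels of Tff3. Between KO and WT the difference was -0.02 in untreated mice (95% interval -0.39 to 0.35), and 0.12 under antibiotics (-0.25 to 0.49).

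Spink4, a Kazal-type serine protease inhibitor secreted by goblet cells, gave the smallest adjusted p of these genes. Its lowest, median and highest levels were 11.05, 11.67 and 12.06 on KO_antibiotic arrays, against 10.62, 11.70, 12.12, 10.70 and 11.51 on WT_antibiotic arrays 1 to 5. They were 13.93, 14.10 and 14.45 on KO_untreated arrays, against 12.69, 12.07, 13.79, 13.25 and 12.35 on WT_untreated arrays 1 to 5. KO_untreated arrays thus all lay above the WT_untreated ones, whereas the antibiotic groups overlapped.

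Spink4 was 2.46-fold higher in KO than in WT untreated mice (log2 difference 1.30 ± 0.28 SE, adjusted p = 0.00807). It fell by 2.53 with antibiotics in KO mice (SE 0.26, adjusted p = 1.73e-06) and fell by 1.50 in WT mice (SE 0.29, adjusted p = 0.00383). Under antibiotics the difference between KO and WT was 0.28 (95% interval -0.30 to 0.85). These 3 calls held in every fit that left out 1 array. The fall was larger in KO than in WT mice by 1.02 ± 0.39 SE, with an unadjusted p of 0.0155 and an adjusted p of 0.515.

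Agr2 encodes a protein disulphide isomerase of the endoplasmic reticulum that goblet cells need to fold mucin. Its lowest, median and highest levels were 5.95, 6.79 and 7.08 on KO_antibiotic arrays, against 5.74, 6.25, 6.01, 6.56 and 6.20 on WT_antibiotic arrays 1 to 5. They were 7.32, 8.10 and 8.95 on KO_untreated arrays, against 7.51, 7.20, 8.24, 7.33 and 6.93 on WT_untreated arrays 1 to 5. The antibiotic arrays lay below all untreated arrays of their genotype. Agr2 fell by 1.35 in KO mice (SE 0.26, adjusted p = 0.000951) and fell by 1.29 in WT mice (SE 0.28, adjusted p = 0.01001). The genotypes overlapped under both treatments, with differences between KO and WT of 0.59 ± 0.27 SE in untreated mice (adjusted p = 0.151) and 0.54 ± 0.27 SE under antibiotics.

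Foxa3 encodes a forkhead transcription factor that is active in secretory cells of the gut. Its lowest, median and highest levels were 10.43, 10.58 and 10.83 on KO_antibiotic arrays, against 9.70, 10.50, 10.59, 9.71 and 10.33 on WT_antibiotic arrays 1 to 5. They were 11.29, 11.70 and 11.88 on KO_untreated arrays, against 10.97, 10.67, 10.89, 10.96 and 11.03 on WT_untreated arrays 1 to 5. The untreated genotypes did not overlap, nor did antibiotic and untreated arrays within either genotype. Foxa3 was 1.64-fold higher in KO than in WT untreated mice (log2 difference 0.71 ± 0.16 SE, adjusted p = 0.0112). It fell 2.00-fold with antibiotics in KO mice (SE of the log2 difference 0.15, adjusted p = 0.000103) and fell by 0.74 in WT mice (SE 0.17, adjusted p = 0.0131), and these 3 calls held in every fit that left out 1 array. Under antibiotics the difference between KO and WT was 0.45 ± 0.16 SE.

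The group means of Retnlb, Ang4, Itln1, Spink4, Agr2, Foxa3 and the brighter Clca1 probe fell in the same order, with KO_untreated highest, then WT_untreated, then KO_antibiotic, and WT_antibiotic lowest. Of the neighbours in that order, KO_untreated and WT_untreated were apart for Retnlb, Spink4 and Foxa3, against 4.09% of tested probes. KO_antibiotic and WT_antibiotic were apart for none of the 7, against 0.245% of probes. WT_untreated and KO_antibiotic overlapped or, for Spink4, all but touched, with a lowest WT_untreated level of 12.07 and a highest KO_antibiotic level of 12.06. The share of all probes apart in that pair was not counted. The second Clca1 probe had KO_antibiotic (13.87) slightly above WT_untreated (13.83). For Tff3 and Zg16 both antibiotic groups had higher means than both untreated groups. Whether the antibiotic effect differed between genotypes was tested as the interaction. It passed for 0 of 9 genes, where 0.01% of all tested probes passed. Of the 9, Spink4 alone had an unadjusted p under 0.05, as did 1755 of the 19993 tested probes. The interval of the interaction was wide for the most variable genes, from -2.14 to 1.66 for Retnlb and from -2.91 to 3.92 for Ang4.

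Retnlb, Ang4 and Itln1 were among the most variable genes of the epithelium within groups. Of 10705 genes with a tested probe, Ang4 had the third largest within-group SD (2.20), Itln1 ranked 6 (1.78) and Retnlb ranked 20 (1.22), where the median gene had 0.29. Spink4 ranked 1045 and Agr2 1156. Tff3, Clca1 and Foxa3 were near the median (SD 0.30, 0.27 and 0.26), and Zg16 ranked 10693, with an SD of 0.11. Zg16 (14.42 to 14.87 over all arrays) and the brighter Clca1 probe (13.60 to 14.82) lay near the top of the scale. Whether this narrowed their SD was not tested.

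The variable genes went up and down together from array to array. Among WT_untreated arrays, the order from highest to lowest was 3, 4, 1, 5 and 2 for Retnlb, Ang4, Itln1 and Spink4. The brighter Clca1 probe had the order 4, 3, 5, 1 and 2 there. Among WT_antibiotic arrays, array 5 and then array 1 led for Retnlb, Ang4, Itln1 and the brighter Clca1 probe. For Spink4, WT_antibiotic 3 was highest and WT_antibiotic 1 lowest, and array 1 led for the second Clca1 probe. With group means removed, over 22 arrays, Pearson's r was 0.95 between Retnlb and Ang4, 0.94 between Retnlb and Itln1, 0.96 between Ang4 and Itln1, and 0.89 between Retnlb and Clca1. Without the 2 arrays farthest from their group means, KO_antibiotic 6 and WT_untreated 2, these were 0.87, 0.86, 0.91 and 0.69. Between Retnlb and Spink4, r was 0.56, and 0.40 without these 2 arrays. Foxa3 did not share this pattern, with r of 0.02 with Retnlb and 0.13 with Ang4, but it had an r of 0.56 with Spink4. Tff3 and Zg16 had an r of 0.49 with each other, and Tff3 had -0.37 with Retnlb. These correlations describe the 22 arrays, which share normalisation and RNA preparation for all genes, and they carry no test.

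**Figure D3:**
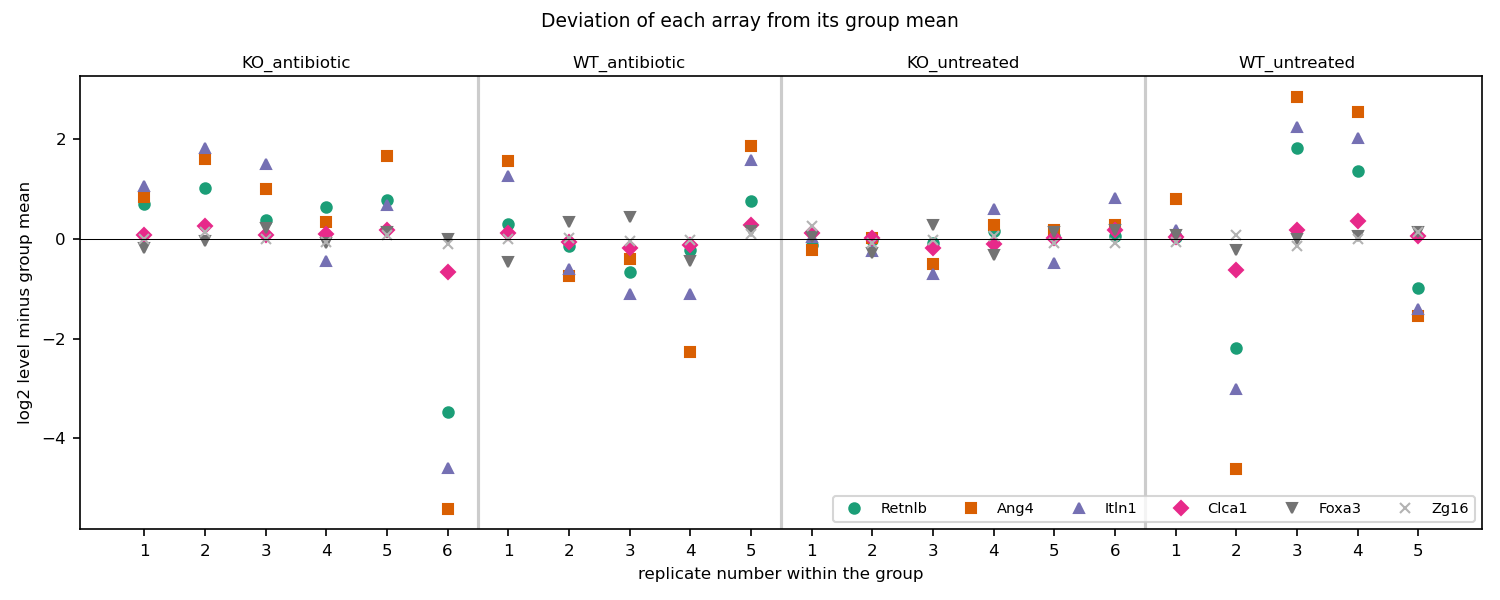
Log2 level minus the mean of the group (vertical axis) for 6 of the genes on each of the 22 arrays, named by replicate number within the group (horizontal axis). Retnlb, Ang4 and Itln1 lie on the same side of 0 and far from it on KO_antibiotic 6 and WT_untreated 2, 3 and 4, while Foxa3 and Zg16 stay near 0.

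**Figure D4:**
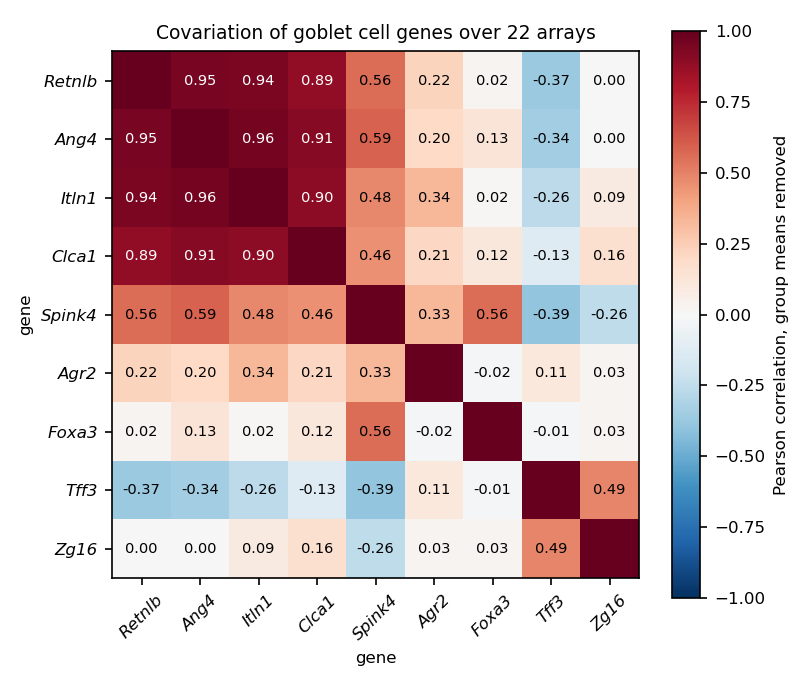
Pearson correlation between genes over 22 arrays after the group means were removed, with the value in each square. Retnlb, Ang4, Itln1 and Clca1 form a block with r of 0.89 to 0.96, whereas Foxa3 has 0.02 with Retnlb and 0.56 with Spink4.

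Factors of goblet cell transcription and Notch signalling were examined as a list of 15, of which 13 had a tested probe. In untreated mice 5 of the 13 were higher in KO than in WT and 0 lower, against 5.55% of all tested probes higher, with a median difference of 0.41. Spdef, a factor that drives goblet cell maturation, differed by 0.92 (adjusted p = 0.0476), and Gfi1, which acts in the choice of the secretory fate, by 1.27 (adjusted p = 0.0188). Creb3l4 (0.91), Elf3 (0.80) and Neurog3 (0.70) also passed. Neurog3 was detected on only 10 arrays, with low group means of 5.52 in KO_untreated and 4.82 in WT_untreated. With antibiotics 7 of the 13 fell in KO mice, against 7.06% of probes, among them Spdef (-1.69, adjusted p = 0.000250) and Neurog3 (-0.99). Hes1, a Notch target that opposes the secretory fate, rose by 0.59 in KO mice. In WT mice 1 of 13 fell, against 2.27% of probes, Spdef (-1.17, adjusted p = 0.0296). Atoh1, the master factor of the secretory lineage, had a probe that was detected on 0 arrays.

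Other goblet cell products and parts of the secretory machinery made a list of 25, with 23 tested. In untreated mice 5 of 23 were higher in KO and 0 lower, against 5.55% of all tested probes higher. They were led by Reg4, a secreted lectin (2.52 ± 0.49 SE, adjusted p = 0.00486), with Capn9 (0.82), Kcnn4 (0.61) and the disulphide isomerases Pdia5 (0.83) and Pdia6 (0.61). Capn9 was detected on only 12 arrays, with low group means of 5.22 in KO_untreated and 4.40 in WT_untreated. With antibiotics 8 of 23 fell and 0 rose in KO mice, against 7.06% of probes lower and 5.33% higher. In WT mice 4 fell and 2 rose, against 2.27% lower and 2.49% higher. Reg4 fell by 3.57 in KO mice (adjusted p = 1.51e-05). Muc2, the mucin that forms the colon gel, passed in none: it differed by 0.09 between KO and WT untreated mice (adjusted p = 0.682), by -0.22 between antibiotic and untreated KO mice (adjusted p = 0.300) and by -0.14 in WT mice (adjusted p = 0.631). Muc2 lay at group means of 14.44 to 14.67, near the top of the scale, and whether its signal was compressed was not tested. The 2 that rose in WT mice were Best2, an anion channel (1.28, adjusted p = 0.0274), and Cdc42ep5 (0.57, adjusted p = 0.0492). Under antibiotics, and for the interaction, 0 members of either list passed between KO and WT.

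**Figure D5:**
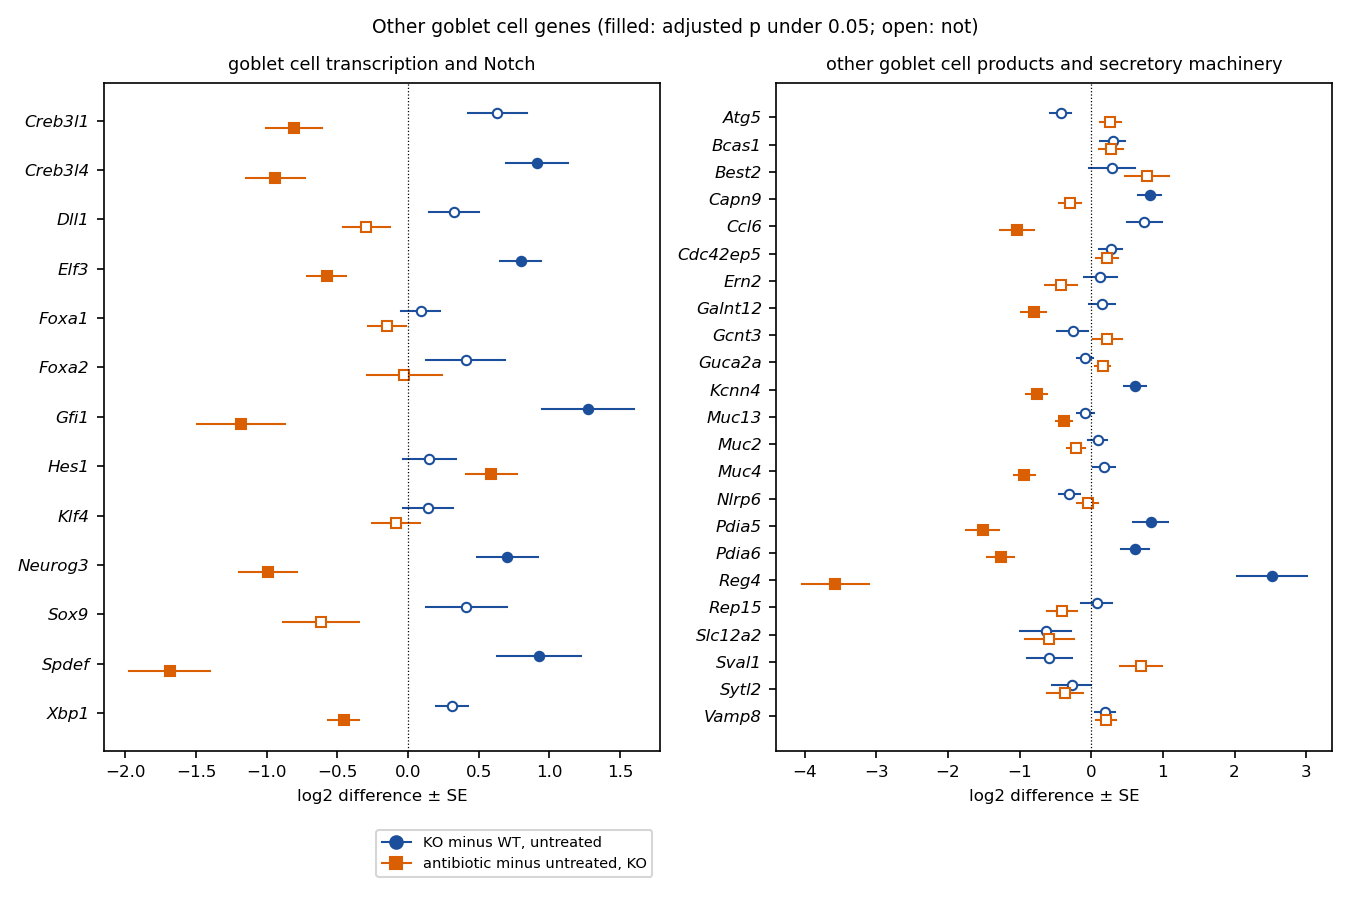
Log2 differences ± SE for the tested genes of both goblet cell lists; circles are KO minus WT in untreated mice and squares antibiotic minus untreated in KO mice, filled where the adjusted p was under 0.05. Reg4 has the widest differences (2.52 and -3.57) and Muc2 lies near 0 in both (0.09 and -0.22).

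Type 2 cytokine signalling, which is known to induce several goblet cell products, had few tested genes. Of 16 genes 6 were tested. Il13, the cytokine best known for inducing goblet cells, was detected on 11 arrays and differed by -0.04 between KO and WT untreated mice (adjusted p = 0.884), and Il33 was detected on 4 arrays. The probes for Il4, Il5, Il9, Il22, Il25, Tslp and Il13ra2 were detected on 0 arrays. In untreated mice Stat6, the factor through which these cytokines act, was higher in KO (0.49, adjusted p = 0.0450) and Il18 was lower (-1.28, adjusted p = 0.0390). That is 1 of 6 higher and 1 lower, where 10.9% of all tested probes passed and 5.55% passed as higher. The median difference of the 6 genes was -0.0008. No gene of this list passed for antibiotics in either genotype.

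Relatives of the 10 genes were also compared, as a list of 23 with 11 tested. Clca3b, a relative of Clca1, passed in 3 comparisons: it differed by 1.38 between KO and WT untreated mice (adjusted p = 0.0177), by -2.54 with antibiotics in KO mice (adjusted p = 1.62e-05) and by -1.32 in WT mice (adjusted p = 0.0372). Rnase4, a relative of Ang4, was lower in KO than in WT untreated mice (-0.66, adjusted p = 0.0110). With antibiotics 5 of the 11 fell and Spink1 rose (1.34, adjusted p = 0.000874) in KO mice, against 7.06% of tested probes lower and 5.33% higher. The probes for Ang2 and Ang5, close copies of Ang4, were detected on 0 arrays.

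Markers of other cell types moved beside these genes. Of 5 tested Paneth cell genes, 3 were higher in KO than in WT untreated mice (Defa3, Defa20 and Pla2g2a), against 5.55% of tested probes. These 3 fell with antibiotics in KO mice, against 7.06% of probes. Defa3 was detected on 8 arrays and Defa20 on 7. Of the 5 genes, 4 to 5 were detected on KO_untreated arrays, against 2 to 4 on WT_untreated arrays and 2 to 3 in each antibiotic group. Defa3 and Defa20 may thus have passed the filter of 5 arrays through the group where they were high. The shares of all probes are no like comparison for them. In WT mice 1 of the 5, Pla2g2a, fell with antibiotics (-4.16, adjusted p = 7.88e-05), against 2.27% of probes. The mean log2 level of the Paneth list was 5.79 to 6.02 in KO_antibiotic and 5.26 to 5.92 in WT_antibiotic, and 7.42 to 8.39 in KO_untreated against 5.89 to 7.22 in WT_untreated. Lyz1 and Mmp7 of the list passed in none of the comparisons. Ang4 and Itln1 are also made by Paneth cells of the mouse small intestine, and the part of such cells in their levels was not tested. All 4 tested tuft cell genes (Dclk1, Trpm5, Avil and Alox5ap) were higher in KO than in WT untreated mice, by 0.97 to 1.56. Of all tested probes, 5.55% were higher there. With antibiotics 2 of the 4 fell in KO mice, against 7.06% of probes. The mean of the tuft cell list was 5.19 to 6.34 in KO_antibiotic and 4.63 to 5.73 in WT_antibiotic, and 6.31 to 6.96 in KO_untreated against 4.93 to 5.78 in WT_untreated, and Pou2f3 of this list was detected on 0 arrays. Of 3 tested leukocyte genes, the mast cell protease Mcpt1 was higher in KO untreated mice (3.04) and fell with antibiotics in KO mice (-3.86). The leukocyte list mean was 4.45 to 6.29 in KO_antibiotic and 4.86 to 5.71 in WT_antibiotic, and 6.36 to 7.67 in KO_untreated against 5.43 to 6.52 in WT_untreated, where Cd3e was detected on 22 arrays, Mcpt1 on 21, Ptprc on 9, and Cd8a, Jchain, Itgam and Mcpt2 on 0. The part of tuft cells and leukocytes in the results was not tested. Of 5 tested enteroendocrine genes Chgb was lower in KO than in WT untreated mice (-1.19), and 0 of 4 tested stromal genes passed in any comparison. Krt18 alone of 10 epithelial markers passed, with 0.72 between KO and WT untreated mice, -1.24 with antibiotics in KO mice and -0.60 in WT mice, and the mean of these markers lay between 11.05 and 11.47 on every array. Exocrine pancreas genes were detected in full, 6 of 6, on WT_antibiotic 1 and 5 and WT_untreated 4, with list means of 7.75, 9.36 and 9.69, against 4.48 to 5.10 on the other 19 arrays. These 3 arrays ranked first or second of their group for Retnlb, Ang4 and Itln1, and the part of such RNA was not tested.

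Over the 22 arrays, the genes whose level went most like the mean of the 9 standardised goblet cell genes were Pde2a (Pearson's r 0.95), Pnliprp2 (0.92), Clps (0.91), Kdelr3 (0.91), Sil1 (0.90), H6pd (0.90), Tead2 (0.90), Slc2a10 (0.90), Serac1 (0.90) and Hilpda (0.89). With group means removed these were 0.61 to 0.85. Pnliprp2 and Clps, a lipase-related protein and colipase, are best known from the pancreas. In untreated mice both were higher in KO than in WT by limma (3.67, adjusted p = 0.0156, and 2.23, adjusted p = 0.0249). The exocrine pancreas list mean was 4.48 to 5.10 on KO_untreated arrays. The arrays with that list detected in full, given above, were all WT. The part of pancreas RNA in the levels of Pnliprp2 and Clps was not tested. For single genes, Pnliprp2 was among the 2 closest for Retnlb, Ang4, Itln1 and Clca1, and Mptx1 for Ang4, Itln1 and Clca1. Pla2g2a was the second closest to Retnlb (0.94). The closest for Spink4 were Gpx2 and Duoxa2 (0.97 each), for Agr2 Mthfd2 and Gsdmc4, for Foxa3 Hpd and Tmem97, for Tff3 Pamr1 and Ebpl, and for Zg16 Tmem179b and Gstm7. These are descriptions over arrays that share groups, and carry no test.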

How the data were processed

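RNA of colon epithelial cells was measured on 22 Illumina mouse bead arrays. The deposited scanner table gives, per the file headers, a linear intensity and a detection p-value per probe and array. The authors' processed table, also linear intensity, served as an alternative, and the sources used here do not say how it was made. Background correction and quantile normalisation used neqc in limma 3.58.1 (R 4.3.3), with the deposited detection p-values and an offset of 16. The filter kept 19993 probes, detected (p-value under 0.05) on 5 or more arrays. A limma model with a mean per group was fitted to them over 22 arrays. The 5 contrasts were two-sided, with Benjamini-Hochberg adjustment over all tested probes and a threshold of 0.05. Names came from the platform annotation (34885 probes had 1 symbol, 18 several, 10378 none), updated through the table of GRCm38.p6. Where a gene had several tested probes, the one with the highest mean level stands for it. Precision rests on the number of arrays, and a log2 difference between KO and WT had a median SE of 0.177.

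The 10 genes and all lists were chosen with earlier results of these data known. The text names the 10 genes, up to 4 genes per list by smallest p, and the genes most alike over arrays, without predicted genes; other list genes were named after their values were seen. The fit was tested on simulated data. Replicate numbers were not taken to pair arrays: of 31 same-numbered pairs, 12 correlated above 0.1 (-0.38 to 0.53). The alternatives tried changed the background correction, scaling, filter, processed table, array weights, replicate block, groups fitted, probe choice, and left out each array in turn.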

Additional observations from a re-analysis of the deposited data

Results flagged for a closer look

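In 40 checks of a group and a probe, 5 arrays lay farther from the rest of their group than Dixon's 95% limit allows, where chance gives about 1 in 20, or 2. Of the 5, 4 were on KO_antibiotic 6, the array that also stood apart over all probes. There Retnlb was at 7.84, with 11.68 as the nearest KO_antibiotic value. Ang4 was at 4.71, with 10.46 as the nearest, and Itln1 was at 4.41, with 8.54 as the nearest. The brighter Clca1 probe was at 13.60, with 14.35 as the nearest. Pigr was 9.36 on this array, within the range of the other KO_antibiotic arrays. The second Clca1 probe was at 13.56 on KO_untreated 3, with 14.24 as the nearest KO_untreated value, while the brighter Clca1 probe was the lowest of its group there at 14.45.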

How the results depend on the processing

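Counts of genes that passed, of 9, were 3 (KO against WT, untreated), 0 (KO against WT, antibiotic), 5 (antibiotic, WT), 6 (antibiotic, KO) and 0 (interaction). Leaving out each array gave 2 to 4, 0 to 2, 3 to 7, 4 to 6 and 0 to 0, and over all tested probes 856 to 2081, 5 to 12, 411 to 1314, 2052 to 2460 and 1 to 22. Without a filter, the antibiotic count in WT was 3, since Retnlb (adjusted p = 0.0509) and Ang4 (0.137) were lost among 45281 tested probes. This setting also lost Retnlb in KO against WT untreated (0.132) and Ang4 and Tff3 in antibiotic KO (Ang4 0.0917), and with only the groups compared Ang4 in WT was lost (0.0521). With KO_untreated represented by its 1 array without a suffix, KO against WT untreated gave 0 and antibiotic in KO gave 2 (Spink4 and Agr2), from fewer arrays. Of all tested probes, 2180, 6, 950, 2478 and 2 passed, against 3262, 8, 2276, 2831 and 17 with array weights, 982, 5, 550, 1956 and 0 without a filter, and 3264, 6, 977 and 2088 with only the groups compared. With the replicate number as a block the counts of genes were 4, 0, 5, 6 and 0, and of probes 3358, 5, 988, 2458 and 2; the numbers are not known to pair arrays. Itln1 passed in antibiotic KO without background correction, with median scaling, the authors' values, the stricter filter and probes averaged (lowest adjusted p = 0.0409), in KO against WT untreated with array weights, the block and only the groups compared, and in antibiotic WT with array weights (0.0337).

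Tff3 rose with antibiotics in KO mice in quantile-normalised values but did not pass with median scaling, without a filter or with array weights. Signs turned where neither value passed. With median scaling, KO against WT untreated was 0.16 for Tff3 and -0.10 for Zg16, and under antibiotics -0.0159 for Zg16. With the array without a suffix, Tff3 was 0.19 (KO against WT untreated) and -0.0678 (interaction), Zg16 was -0.12 (antibiotic, KO) and -0.25 (interaction), and Clca1 was -0.0443 (interaction). Leaving out arrays gave -0.16 to 0.0874 for Tff3 and -0.00376 to 0.0832 for Zg16 in KO against WT untreated. For the interaction it gave -0.69 to 0.46 for Retnlb, -0.20 to 1.66 for Ang4, -0.0368 to 1.44 for Itln1, -0.26 to 0.13 for Agr2, -0.0304 to 0.21 for Clca1 and -0.0236 to 0.0634 for Zg16. The cause was not tested.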
